A study of Rattus norvegicus with 12 samples.

Results

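Irg1, Nos2, Arg1, Mrc1, Cd163 and Chi3l1 are 6 genes whose products are read as signs of how macrophages and microglia are polarized. They were chosen by symbol from the 37209 gene symbols of a count table of rat brain RNA, and all 6 members passed the filter on low counts, as did 17008 symbols in all. The table covers 12 libraries in 4 groups of 3, all from the brain of Sprague Dawley rats on postnatal day 21. The groups are middle cerebral artery occlusion (MCAO, a forebrain stroke made by closing the chief artery of a hemisphere), sham LN, pontine infarction (a stroke of the pons, a part of the brainstem) and sham PN. Sham LN is set against MCAO and sham PN against pontine infarction because the sample codes share a first letter. The labels mention 3 rats for each stroke, leave out the dissected region and the interval between stroke and sampling, and do not say whether shams and stroke rats were processed together. The p-values therefore measure the spread between these samples.

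Macrophages change their enzymes and surface receptors with the signals they meet. In rodents, bacterial products and interferon gamma drive a classical, inflammatory state in which the enzyme of Nos2 makes nitric oxide from arginine and that of Irg1 makes itaconate from an intermediate of the citric acid cycle. Interleukin 4, interleukin 13, interleukin 10 and glucocorticoids drive alternative states, in which arginase, the product of Arg1, turns arginine into ornithine and urea, and the scavenger receptors Mrc1 and Cd163 are raised. In the uninjured brain Mrc1 and Cd163 mark the macrophages of vessels and meninges rather than microglia, and Chi3l1 is known from reactive astrocytes as well as from myeloid cells.

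The libraries held 19805815 to 40400676 counts. Snap25, a protein of nerve endings, and Mbp, a myelin protein, were abundant in every library, at 469 to 1547 and 5166 to 38989 CPM (counts scaled to library size), as a check of the labelled tissue. One MCAO column carries a number that is in no sample title and is called the unnumbered MCAO library. The summed levels of listed neutrophil, monocyte and pan-myeloid genes were lowest in MCAO replicate 2 among the MCAO libraries, so that library stood nearest to the shams. Levels are CPM on library sizes scaled by TMM, given as mean ± SD of 3 libraries where averaged, and log2 changes carry their SE. Gene lengths are not in the table, so levels are compared between libraries and not between genes.

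After MCAO, 5 of the 6 members rose, and Cd163 did not pass the test. Among all tested genes 18.6% were called, 12.5% rising and 6.07% falling, and a call here means an adjusted p under 0.05 in edgeR's quasi-likelihood test. The median log2 change of the 6 members was 3.70, and that of all tested genes was 0. The ranges of 5 members did not overlap between MCAO and sham LN, against 39.1% of all tested genes. The change was of very different size among the members. The count of members called was 3 without MCAO replicate 1 and 2, 3 and 3 without sham LN replicates 1, 2 and 3. Irg1 and Nos2 had almost no counts in the shams and were abundant in all MCAO libraries. In pooled levels Arg1 rose 25.4-fold, Chi3l1 6.49-fold and Mrc1 3.09-fold.

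After pontine infarction, 0 of the 6 members passed the same test, in which 4.08% of all genes were called. The 6 members had a median log2 change of 1.74, against -0.08 for all tested genes. The ranges of Irg1, Nos2, Mrc1 and Chi3l1 nevertheless lay wholly above those of sham PN, in a comparison where the ranges of 32.0% of all tested genes did not overlap. DESeq2 on the same counts called these 4 members and not Arg1 or Cd163, and limma voom called 0. Of all 17008 tested genes DESeq2 called 1738 and limma voom 315. Without pontine infarction replicate 2, edgeR called 3, which were Irg1, Nos2 and Chi3l1, and 965 of 17237 tested genes in all. Of the unadjusted p-values of the 6 members, those of Irg1 (0.00433), Nos2 (0.00783), Mrc1 (0.0168) and Chi3l1 (0.00375) were under 0.05 in edgeR's quasi-likelihood test.

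**Figure D1:**
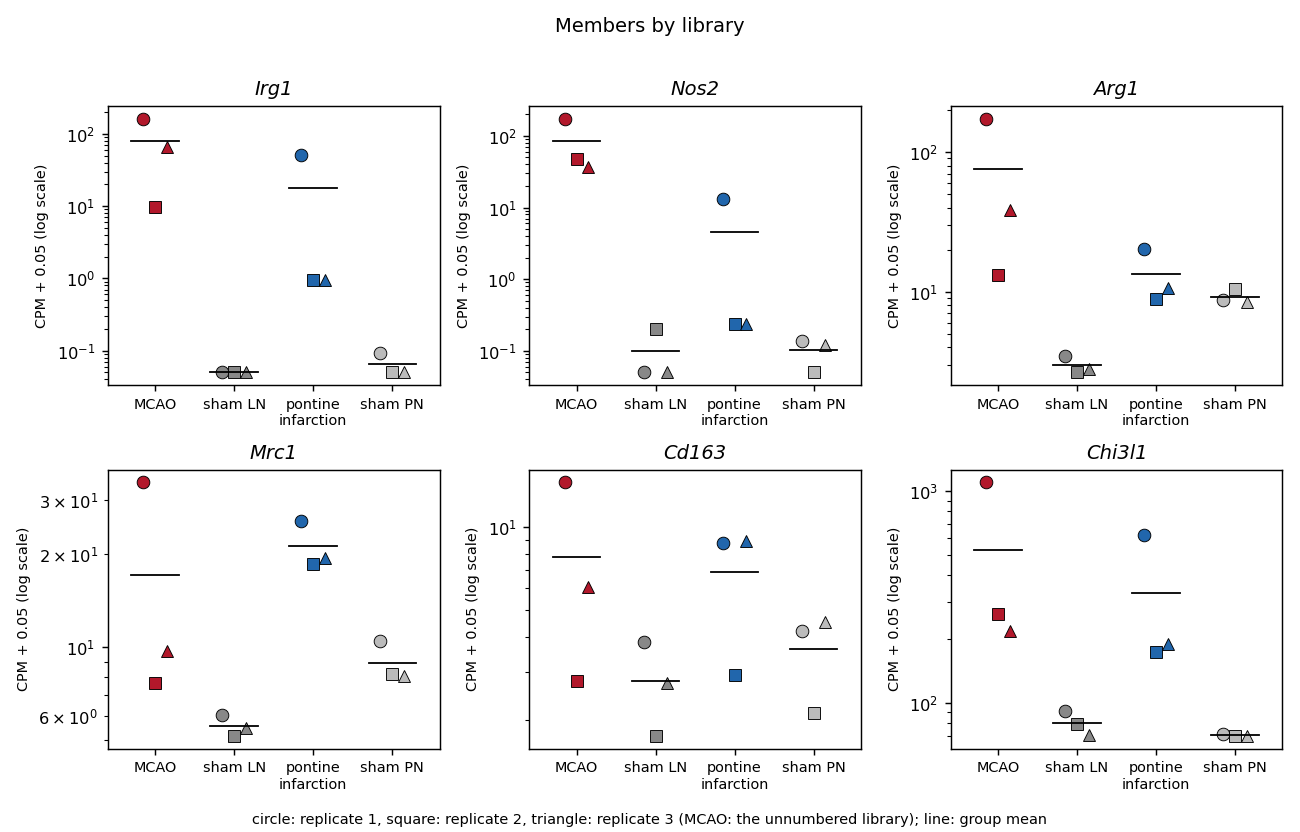
Level of each member in each library, in CPM plus 0.05 on a log axis, with a panel for each gene and a column for each group; points are libraries, and lines are group means. Irg1 and Nos2 lie at or near 0 in all 6 shams, Arg1 is higher in sham PN than in sham LN, and MCAO replicate 1 is the highest MCAO library in all 6 panels.

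Irg1, now named Acod1, encodes the mitochondrial enzyme that makes itaconate, a metabolite that slows succinate dehydrogenase and restrains inflammatory signals. The stretch before its start is shown because the gene had 4892 counts in the MCAO group and 0 in sham LN. The 250 bases lie on the plus strand of the RefSeq assembly GRCr8 at chr15:86286289-86286538, a newer assembly than the one the counts were made on.
Irg1: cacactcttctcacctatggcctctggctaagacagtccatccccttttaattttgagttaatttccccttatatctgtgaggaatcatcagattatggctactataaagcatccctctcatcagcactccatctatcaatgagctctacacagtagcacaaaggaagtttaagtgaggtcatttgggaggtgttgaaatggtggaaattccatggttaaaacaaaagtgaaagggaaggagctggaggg
None of 4 motifs searched on both strands, for NF-kB, STAT, STAT6 and C/EBP, was matched in this stretch or in the 50 bases after the start, so no base is in capitals.

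Irg1 had 162, 9.53 and 64.6 CPM in MCAO replicate 1, replicate 2 and the unnumbered library, and 0 counts in each sham LN library. A count of 0 allows up to 0.079, 0.111 and 0.115 CPM in sham LN replicates 1, 2 and 3. All 3 MCAO libraries were thus far above every sham, and they differed among themselves by 17.0-fold. Over the groups, 4892 counts stood against 0, and edgeR's adjusted p was 0.0141. The pooled level of Irg1 was at least 2406.5-fold higher after MCAO, against a floor of 3 counts over the sham LN group. This bound covers counting error only and not the spread between libraries, and 3363 of the 4892 counts came from MCAO replicate 1. Without sham LN replicate 1 the adjusted p was 0.052, and limma voom gave 0.0992.

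In pontine infarction, Irg1 had 51.4, 0.912 and 0.897 CPM in replicates 1 to 3. Sham PN replicates 1 to 3 had 0.0430, 0 and 0 CPM, from a single count. The groups did not overlap, but replicate 1 held most of the reads, 1106 of 1169. The ratio of pooled levels was 996, with a 95% counting interval of 178 to 39386 that covers counting error only, and edgeR's adjusted p was 0.0716. Without pontine infarction replicate 2, whose level is close to that of replicate 3, the adjusted p was 0.0384. Without replicate 1 it was 0.179, and the fitted log2 change was 5.7, against 9.97 with all libraries.

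Nos2, the inducible nitric oxide synthase, had 174, 47.8 and 36.6 CPM in MCAO replicate 1, replicate 2 and the unnumbered library. Sham LN replicates 1 to 3 had 0, 0.148 and 0 CPM, from 4 counts in all. No MCAO library came near the shams, and unlike Irg1, Nos2 was not lowest in MCAO replicate 2. The log2 change was 10.77 ± 1.96 (edgeR adjusted p = 0.00551), and the ratio of pooled levels was 1970 with a counting interval of 769 to 7232. Nos2 passed the test in each of 14 alternative analyses, with a highest adjusted p of 0.0358.

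The Nos2 levels in pontine infarction were 13.02, 0.187 and 0.187 CPM in replicates 1 to 3, and in sham PN 0.0860, 0 and 0.0719 CPM. Replicates 2 and 3 rested on 8 and 5 counts, so outside replicate 1 the gene was barely detected. The ratio of pooled levels was 62.4 with a counting interval of 24.1 to 231 (edgeR adjusted p = 0.0950). The adjusted p was 0.0398 without pontine infarction replicate 2. Without replicate 1 it was 0.557, and the fitted log2 change was 1.77, against 6.26 with all libraries. Nos2 was the one member whose range in pontine infarction lay wholly below its range in MCAO.

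Arg1, the cytosolic arginase that competes with Nos2 for arginine, had 173, 13.1 and 38.6 CPM in MCAO replicate 1, replicate 2 and the unnumbered library. Sham LN replicates 1 to 3 had 3.40, 2.59 and 2.75 CPM. The lowest MCAO library was well above the highest sham, and the log2 change was 4.68 ± 0.78 (edgeR adjusted p = 0.00393). Arg1 passed in each of 14 alternatives, with log2 changes from 3.06 to 5.08. The lowest of these came without MCAO replicate 1.

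In pontine infarction Arg1 had 20.3, 8.87 and 10.5 CPM in replicates 1 to 3, against 8.68, 10.5 and 8.37 CPM in sham PN. Replicate 2 lay within the sham range, replicate 3 just above its upper end, and replicate 1 well above it. The log2 change was 0.52 ± 0.68 (edgeR adjusted p = 0.689), and without pontine infarction replicate 1 it was 0.08. Arg1 had the largest difference between the responses among members with enough sham counts, 4.16 ± 1.0 log2 units higher for MCAO, with an unadjusted p of 0.00142 and an adjusted p of 0.261 in edgeR. DESeq2 gave an adjusted p of 0.00345 for that difference, and edgeR gave 0.00814 without MCAO replicate 2. The other 16 of 18 alternatives did not pass the threshold. Among them, limma voom gave an adjusted p of 0.481. Without MCAO replicate 1 the difference was 2.44, with an edgeR adjusted p of 0.312. Each response is measured from its own sham, and the Arg1 levels of the shams differed, as the next paragraph gives.

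Between the shams, Arg1 had 2.92 ± 0.426 CPM in sham LN and 9.17 ± 1.13 CPM in sham PN, and the ranges did not overlap, as was so for 50.9% of all tested genes. The log2 change of sham LN over sham PN was -1.65 ± 0.71 (edgeR adjusted p = 0.124), in a comparison that called 21.3% of all genes. Fitted on these 6 shams alone, it was -1.57 ± 0.20 with an edgeR adjusted p of 0.000136. The labels do not give the dissected region, so region, litter and batch cannot be told apart in this comparison.

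Mrc1, the mannose receptor CD206 that takes up glycoproteins, had 34.1, 7.60 and 9.67 CPM in MCAO replicate 1, replicate 2 and the unnumbered library. Sham LN replicates 1 to 3 had 6.01, 5.11 and 5.43 CPM. The groups did not overlap, yet outside MCAO replicate 1 the gap was small. Mrc1 had a log2 change of 1.63 ± 0.46 (edgeR adjusted p = 0.0311). Without MCAO replicate 1 it was 0.56, with an adjusted p of 0.140, and the adjusted p was 0.0867, 0.0935 and 0.0925 without sham LN replicates 1, 2 and 3. Limma voom gave 0.0783 for Mrc1, and a fit on the compared libraries alone 0.108.

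In pontine infarction Mrc1 was even, at 25.5, 18.5 and 19.5 CPM in replicates 1 to 3, against 10.4, 8.12 and 8.01 CPM in sham PN. Each pontine infarction library was above each sham, and the highest was 1.38-fold the lowest, the smallest spread of any member in that group. The log2 change was 1.26 ± 0.45 (edgeR adjusted p = 0.137). When only the pontine infarction and sham PN libraries were fitted, edgeR's adjusted p was 0.0203. Mrc1 was the one member with a higher mean after pontine infarction (21.2 ± 3.80 CPM) than after MCAO (17.1 ± 14.7 CPM), with overlapping ranges.

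Cd163, the receptor that clears haemoglobin bound to haptoglobin, had 14.4, 2.71 and 5.998 CPM in MCAO replicate 1, replicate 2 and the unnumbered library. Sham LN replicates 1 to 3 had 3.79, 1.70 and 2.68 CPM. MCAO replicate 2 lay inside the sham range, and the log2 change of 1.5 ± 0.61 had an adjusted p of 0.103 in edgeR. Without that library the log2 change was 1.80 and the adjusted p was 0.0264. Without MCAO replicate 1, the highest, they were 0.59 and 0.524. With replicate number as a block, which leaves out the unnumbered library, they were 1.51 and 0.0392.

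The Cd163 levels in pontine infarction were 8.70, 2.88 and 8.82 CPM in replicates 1 to 3, and in sham PN 4.17, 2.08 and 4.49 CPM. Replicate 2 lay inside the sham range and the other replicates above it. The log2 change was 0.92 ± 0.60 (edgeR adjusted p = 0.397), and no alternative brought it past the threshold. Cd163 differed from the other members in that pontine infarction replicate 3, not replicate 1, was the highest.

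Chi3l1 encodes a secreted lectin of the chitinase family without chitinase activity, also called YKL-40 in humans. The 250 bases before its start are shown because they held the only motif match among the promoters of 4 members in the RefSeq table (Irg1, Mrc1, Cd163 and Chi3l1), and lie on the plus strand of GRCr8 at chr13:48193589-48193838. The capitals mark the match to the C/EBP motif, TTGCNNCAA, which begins 100 bases before the start.
Chi3l1: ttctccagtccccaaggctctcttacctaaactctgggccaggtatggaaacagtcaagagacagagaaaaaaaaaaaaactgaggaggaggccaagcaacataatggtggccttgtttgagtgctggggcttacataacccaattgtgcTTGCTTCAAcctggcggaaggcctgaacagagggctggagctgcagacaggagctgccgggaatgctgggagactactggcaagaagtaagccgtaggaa
C/EBP factors take part in macrophage activation. The motif was found in 2.17% of 33469 rat promoter windows of 300 bases, the NF-kB motif in 1.53%, the STAT motif in 8.87% and the STAT6 motif in 7.28%. The match is a run of letters and was not tested as a site. Cebpb, which encodes one of these factors, had 38.1 ± 29.1 CPM after MCAO, against 2.30 ± 0.300 CPM in sham LN (log2 change 4.05 ± 0.80, edgeR adjusted p = 0.00759).

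Chi3l1 had 1097, 261 and 219 CPM in MCAO replicate 1, replicate 2 and the unnumbered library, against 90.9, 78.9 and 70.2 CPM in sham LN. All MCAO libraries were above all shams. Chi3l1 had a log2 change of 2.72 ± 0.63 (edgeR adjusted p = 0.0147). Without MCAO replicate 1 it was 1.5 with an adjusted p of 0.0605, and the adjusted p was 0.0551, 0.0540 and 0.0622 without sham LN replicates 1, 2 and 3.

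In pontine infarction Chi3l1 had 622, 174 and 188 CPM in replicates 1 to 3, against 71.2, 69.5 and 69.7 CPM in sham PN. The shams were nearly equal and every stroke library lay above them by more than 2-fold. The log2 change was 2.23 ± 0.62 (edgeR adjusted p = 0.0667), and without pontine infarction replicate 2 it was 2.53 with an adjusted p of 0.0449. Without replicate 1, the highest, it was 1.37 with an adjusted p of 0.226. Chi3l1 had nearly the same sham level in both groups, with a log2 change of sham LN over sham PN of 0.19 ± 0.59 (edgeR adjusted p = 0.861).

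**Figure D2:**
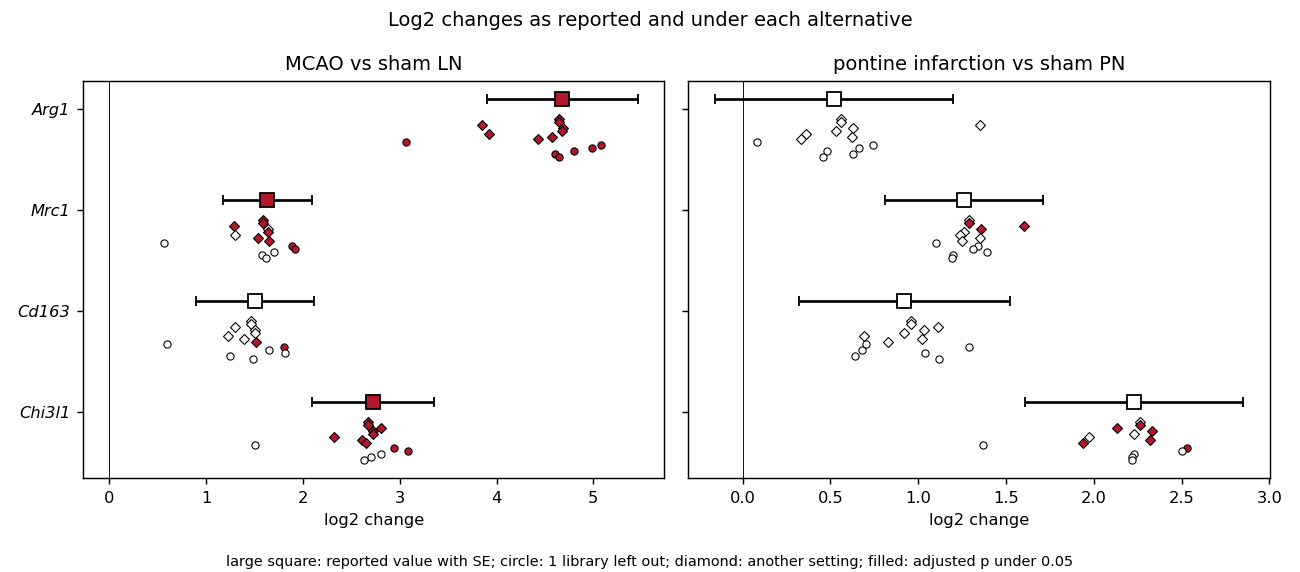
Log2 change of 4 members in each stroke comparison, as reported with its SE (large squares) and under each alternative analysis (circles with a library left out, diamonds with another setting); filled symbols passed an adjusted p under 0.05. Arg1 passed in every MCAO alternative and in no pontine alternative, and all values of all 4 members lie above 0.

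The direction of all 6 members was the same in every alternative for either stroke. The order of the group means was MCAO, pontine infarction, sham PN and sham LN for Irg1, Nos2, Arg1 and Cd163. For Mrc1 it was pontine infarction, MCAO, sham PN and sham LN, and for Chi3l1 MCAO, pontine infarction, sham LN and sham PN. Many neighbours in these orders had overlapping ranges. MCAO overlapped pontine infarction in every member but Nos2, and the shams overlapped in every member but Arg1 and Mrc1. These 2 of 6 are a smaller share than the 50.9% of all tested genes whose ranges did not overlap between the shams. Cd163 overlapped between all neighbours, Arg1 between pontine infarction and sham PN, and Mrc1 between MCAO and sham PN.

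No member differed between the strokes by edgeR's test of the difference of responses, which called 0 of 17008 genes. At an unadjusted p under 0.05 that test had 1826 genes, DESeq2 called 238 at its adjusted threshold and limma voom 0. Of the 6 members DESeq2 called Arg1, and so did edgeR without MCAO replicate 2, when it called 970 genes. The difference for Mrc1 was 0.38 ± 0.63 log2 units (edgeR adjusted p = 0.874), for Cd163 0.58 ± 0.84 (edgeR adjusted p = 0.851) and for Chi3l1 0.49 ± 0.83 (edgeR adjusted p = 0.876). Without MCAO replicate 1 these 3 differences had the opposite sign, at -0.79, -0.43 and -0.83. The adjusted p was 0.762 for Nos2 and 0.917 for Irg1, whose fitted differences rest on nearly empty sham groups. An adjusted p above the threshold does not show that the responses were alike.

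Members moved together across single libraries. MCAO replicate 1 was the highest MCAO library for 6 of 6 members, and pontine infarction replicate 1 the highest of its group for 5 of 6. MCAO replicate 2 was the lowest for 4 and the unnumbered library for 2. Over the 12 libraries Pearson's r of the log2 levels ran from 0.53 for Mrc1 with Nos2 to 0.95 for Irg1 with Nos2. All 12 points share the same 4 groups, so these values describe the groups as much as the libraries.

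By the same measure over 12 libraries, the genes with the pattern most like Irg1 were Cxcl1 (r = 0.997), Cxcr2 (0.993) and Ccr1 (0.992). Cxcl1 is a chemokine for neutrophils, Cxcr2 its receptor and Ccr1 a chemokine receptor of myeloid cells. Nos2 was nearest to Cxcl2 (r = 0.993), Clec4e (0.989) and Clec4d (0.988), a chemokine and a pair of myeloid lectin receptors. Arg1 was nearest to Snx18 (0.963), Rab11fip1 (0.961) and Cd274 (0.959), Mrc1 to Cpne3 (0.967), Dab2 (0.957) and Serpinb10 (0.950), and Cd163 to Rbpms (0.943), Fam46b (0.941) and Sec61g (0.934). Chi3l1 was nearest to LOC102555841 (0.977), Mdfic (0.975) and Mmp8 (0.966), of which Mmp8 is the collagenase of neutrophils.

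These are bulk samples, in which more cells of a type and more RNA per cell cannot be told apart. The 8 pan-myeloid genes, such as Itgam and Cd68, summed to 344 to 1076 CPM after MCAO, against 149 to 186 CPM in sham LN, and to 482 to 1235 CPM after pontine infarction and 153 to 184 CPM in sham PN. Among all tested genes 12.5% rose after MCAO and 3.21% after pontine infarction. Of the 8 pan-myeloid genes, 6 rose after MCAO and 8 after pontine infarction, where 5 rose without replicate 3 and 3, 2 and 0 without sham PN replicates 1, 2 and 3. Each member was therefore also set against that sum in the same library, as its CPM per 100 CPM of pan-myeloid genes. Csf1r, which is also among the resting microglia genes, made up most of that sum in sham PN (levels below). It was not called after MCAO, with log2 changes from 0.02 to 0.54 over 14 alternatives. The ratios therefore depend on the weight of Csf1r in the sum. No test was run on these ratios, and the share of all genes whose ratios do not overlap was not counted. An exact permutation test of 3 against 3 cannot give a p below 0.1.

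On that scale the members parted. Nos2 ran from 6.60 to 16.2 after MCAO and from 0 to 0.0798 in sham LN, and Irg1 from 2.77 to 15 after MCAO against 0 in sham LN. Arg1 ran from 3.81 to 16.1 after MCAO and from 1.40 to 1.89 in sham LN, again with no overlap. Mrc1 had a lower mean ratio after MCAO, 2.37 ± 0.727, than in sham LN, 3.24 ± 0.450, and so had Cd163, 1.07 ± 0.277 against 1.61 ± 0.617, both with overlapping ranges.

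After pontine infarction, Arg1 ran from 0.854 to 3.6 per 100 CPM of pan-myeloid genes and in sham PN from 4.56 to 6.09, so the stroke libraries were all below the shams. The mean ratio of Mrc1 was 3.32 ± 1.55 after pontine infarction and 5.30 ± 1.33 in sham PN, and that of Cd163 0.951 ± 0.516 and 2.13 ± 0.805, with overlap in both. Irg1 ran from 0.0726 to 9.13 after pontine infarction against 0 to 0.0281 in sham PN. Nos2 overlapped, at 0.0151 to 2.31 after pontine infarction and 0 to 0.0561 in sham PN. Chi3l1 overlapped in both strokes, at 39.5 to 102 after MCAO against 42.5 to 50.5 in sham LN, and at 15.3 to 110 after pontine infarction against 38.0 to 46.5 in sham PN.

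**Figure D3:**
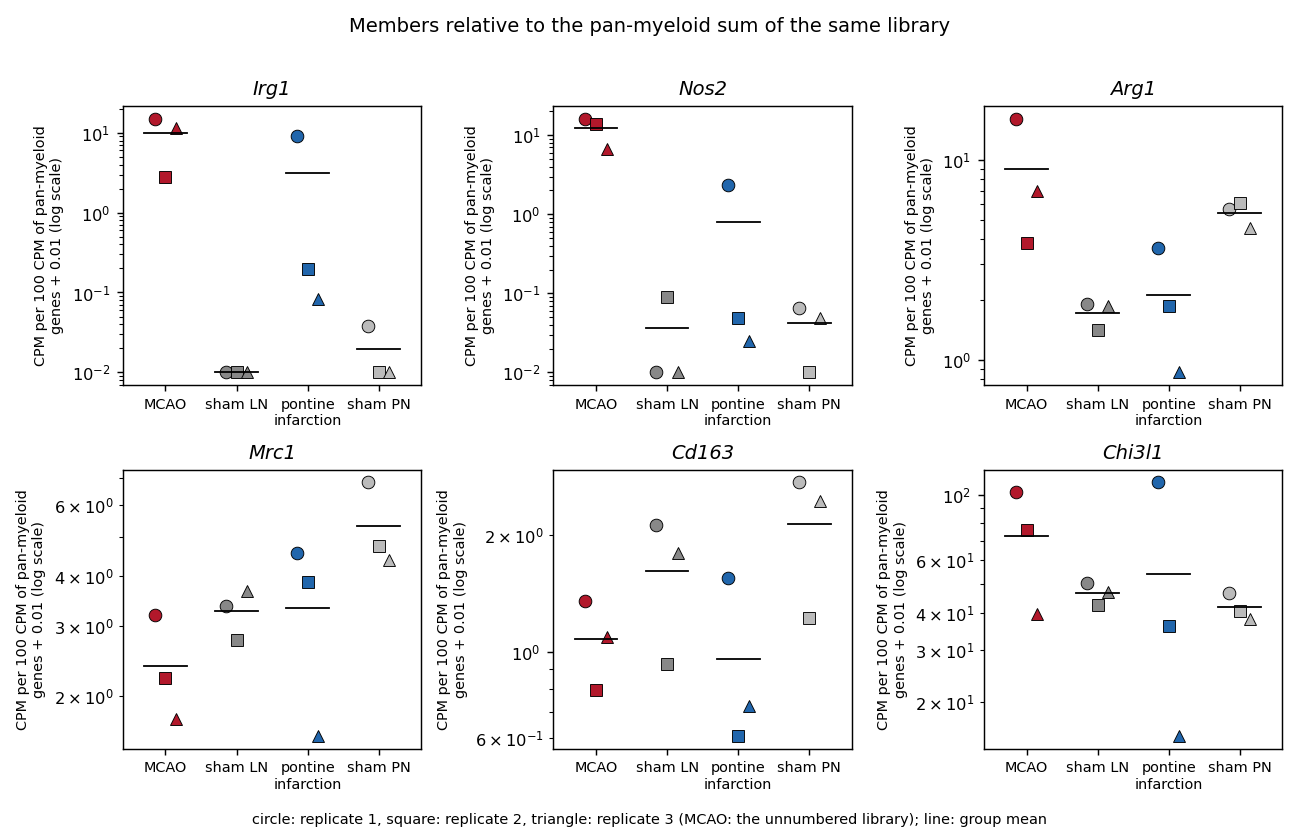
CPM of each member per 100 CPM of 8 summed pan-myeloid genes in the same library, plus 0.01, on a log axis, by group; points are libraries, and lines are group means. Irg1, Nos2 and Arg1 lie above sham LN after MCAO, and Mrc1 and Cd163 have lower means after either stroke than in the matching shams.

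Markers of other cells that could carry the members were also higher in the stroke groups. Within pontine infarction the neutrophil and monocyte sums were highest in replicate 1 and lowest in replicate 2. Irg1 and Nos2 were also highest in replicate 1. They were nearly equal in replicates 2 and 3, where Nos2 rested on 8 and 5 counts. The 15 listed neutrophil genes in the table summed to 114 to 1081 CPM after MCAO, against 8.11 to 9.45 CPM in sham LN, and to 48.2 to 293 CPM after pontine infarction and 6.72 to 8.73 CPM in sham PN. Of 9 tested, 9 rose after MCAO and 5 after pontine infarction, where 3 rose without replicate 1 and 1, 1 and 0 without sham PN replicates 1, 2 and 3. In the reported fit 12.5% of all tested genes rose after MCAO and 3.21% after pontine infarction. Mpo and Ltf, granule proteins of maturing neutrophils, had 5 and 0 counts in the MCAO group. S100a8 had 44.2 ± 53.6 CPM after MCAO, against 0.0594 ± 0.0482 CPM in sham LN (log2 change 9.52 ± 2.17, edgeR adjusted p = 0.0138, and 0.0658, 0.0553 and 0.0549 without sham LN replicates 1, 2 and 3). The 9 monocyte genes summed to 308 to 1676 CPM after MCAO, against 91.1 to 116 CPM in sham LN, and to 231 to 721 CPM after pontine infarction and 127 to 153 CPM in sham PN. Of 8 tested, 8 rose after MCAO and 5 after pontine infarction, where 3 rose without replicate 1 and 0 without any of the sham PN libraries. The part of these cells in the levels of Irg1, Nos2, Arg1 and Chi3l1 was not tested.

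Border macrophages are the resting source of Mrc1 and Cd163 in the brain. The other 13 listed border macrophage genes in the table summed to 85.9 to 212 CPM after MCAO, against 53.7 to 66.9 CPM in sham LN, and to 159 to 382 CPM after pontine infarction and 70.7 to 97.1 CPM in sham PN. Among all tested genes 12.5% rose after MCAO and 3.21% after pontine infarction. Of 12 border macrophage genes tested, 5 rose after MCAO and 3 after pontine infarction. Pf4, a platelet and border macrophage chemokine, was among both, with 3.88 ± 2.57 CPM after MCAO, against 0.474 ± 0.113 CPM in sham LN, and 9.78 ± 8.10 CPM after pontine infarction and 1.19 ± 0.177 CPM in sham PN. Its log2 change was 3.03 in both strokes, with edgeR adjusted p-values of 0.0134 after MCAO and 0.0280 after pontine infarction.

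Lyve1, a hyaluronan receptor of these macrophages, had 2.68 ± 0.629 CPM after MCAO, against 5.15 ± 1.06 CPM in sham LN (log2 change -0.94 ± 0.33, edgeR adjusted p = 0.0672). After pontine infarction Lyve1 had 7.19 ± 3.35 CPM, and 3.56 ± 0.305 CPM in sham PN (log2 change 1.01 ± 0.33, edgeR adjusted p = 0.104). The count of border macrophage genes called after MCAO was 2, 8, 2 and 3 without MCAO replicate 1, MCAO replicate 2, sham LN replicate 1 and sham LN replicate 3. After pontine infarction it was 0 without replicate 3 and without any sham PN library. Pf4 lost its call after MCAO without MCAO replicate 1 (0.0559) and sham LN replicates 1 (0.0630) and 3 (0.0547). Pf4 lost it after pontine infarction without replicate 3 (0.0905) and sham PN replicates 1 (0.0949), 2 (0.121) and 3 (0.135).

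Resting microglia genes were called about as often as all tested genes after MCAO (18.6%). Of 10 tested, Siglech rose after MCAO and Tmem119 fell, to 12.1 ± 10.9 CPM after MCAO, against 43.2 ± 1.02 CPM in sham LN (log2 change -1.84 ± 0.58, edgeR adjusted p = 0.0473). Tmem119 lost its call without MCAO replicate 1 (0.129), the unnumbered library (0.142) or sham LN replicates 1 (0.107), 2 (0.100) and 3 (0.0998). The list had a median log2 change of -0.88 after MCAO. After pontine infarction, where 4.08% of all genes were called, Csf1r, the receptor on which microglia depend, was the 1 gene of 10 called, with 346 ± 212 CPM after pontine infarction and 128 ± 17.0 CPM in sham PN (log2 change 1.44 ± 0.35, edgeR adjusted p = 0.0425). That call was lost without pontine infarction replicate 3 (0.0970) and sham PN replicates 1 (0.123), 2 (0.152) and 3 (0.145), so that 0 were then called. The 2 calls after MCAO became 4 by DESeq2 and by limma voom, 7 without MCAO replicate 2, 1 without MCAO replicate 1 and 0 without the unnumbered library or any sham LN library.

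Reactive astrocyte genes were higher after both strokes, as was the mean of Chi3l1. Their sum was highest in replicate 1 after MCAO, as Chi3l1 was. After pontine infarction it was highest in replicate 3, and Chi3l1 in replicate 1. The 12 reactive astrocyte genes summed to 4374 to 9746 CPM after MCAO, against 492 to 619 CPM in sham LN, and to 4500.5 to 8291 CPM after pontine infarction and 1627 to 1828 CPM in sham PN. Of 11 tested, 11 rose after MCAO and 6 after pontine infarction, where 2, 2 and 1 rose without sham PN replicates 1, 2 and 3. In the reported fit 12.5% of all tested genes rose after MCAO and 3.21% after pontine infarction. Gfap, the astrocyte filament protein, had a log2 change of 3.05 ± 0.22 after MCAO (edgeR adjusted p = 7.24e-05) and 1.83 ± 0.21 after pontine infarction (edgeR adjusted p = 0.00508, and 0.0511 without sham PN replicate 3). Of 10 general astrocyte genes, 6 fell after MCAO, 3 without the unnumbered library and 3 without sham LN replicate 1, and 0 were called after pontine infarction by edgeR, 1 by DESeq2 and 0 by limma voom, with 1 at an unadjusted p under 0.05. Among all tested genes 6.07% fell after MCAO. Whether astrocytes or myeloid cells carried Chi3l1 was not tested. Red cell genes summed to 57.9 to 91.6 CPM after MCAO, against 11.3 to 98.5 CPM in sham LN, and to 26.4 to 127 CPM after pontine infarction and 21.0 to 24.7 CPM in sham PN, and 0 of 3 were called in either stroke by edgeR or limma voom. DESeq2 called 0 of them after MCAO and 2 after pontine infarction, the same numbers as at an unadjusted p under 0.05 in edgeR.

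The members were next set among the other genes of their pathways. Of 22 tested genes of classical activation, 15 rose after MCAO and none fell, with a median log2 change of 3.80. Of all tested genes 12.5% rose after MCAO. Il1b, the inflammatory cytokine, had 188 ± 162 CPM after MCAO, against 0.120 ± 0.153 CPM in sham LN (log2 change 10.66 ± 2.05, edgeR adjusted p = 0.00697). Socs3, a feedback inhibitor of cytokine signalling, had 396 ± 248 CPM after MCAO, against 1.69 ± 0.313 CPM in sham LN (log2 change 7.86 ± 0.99, edgeR adjusted p = 0.00154). Cxcl10, an interferon-induced chemokine, had 24.1 ± 28.6 CPM after MCAO, against 0.156 ± 0.139 CPM in sham LN (log2 change 7.11 ± 1.79, edgeR adjusted p = 0.0206, and above 0.05 without the unnumbered MCAO library or any of the sham LN libraries). The count was 7 without sham LN replicate 3 and 8 by limma voom.

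Genes of alternative activation rose in the same samples. Of 20 tested, 10 rose after MCAO and none fell, with a median log2 change of 1.35, where 12.5% of all tested genes rose. Clec7a, a receptor for fungal glucans, had 23.8 ± 8.28 CPM after MCAO, against 0.0466 ± 0.0264 CPM in sham LN (log2 change 8.93 ± 0.88, edgeR adjusted p = 0.000679). Il1rn, the natural antagonist of interleukin 1, had 369 ± 362 CPM after MCAO, against 0.855 ± 0.930 CPM in sham LN (log2 change 8.65 ± 1.26, edgeR adjusted p = 0.00244). Il10, an anti-inflammatory cytokine, had 383 counts in the MCAO group and 0 in sham LN (edgeR adjusted p = 0.0320). The Il10 call was lost without MCAO replicate 1 (0.0829), the unnumbered library (0.0587) and each sham LN library (0.0896, 0.0771 and 0.0812 for replicates 1, 2 and 3).

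After pontine infarction, 6 of 22 classical and 6 of 20 alternative activation genes rose, with median log2 changes of 2.61 and 1.52. In that comparison 3.21% of all tested genes rose. Clec7a had 21.0 ± 18.8 CPM after pontine infarction and 0.135 ± 0.133 CPM in sham PN (log2 change 7.18 ± 0.78, edgeR adjusted p = 0.00406) and passed in all 14 alternatives. Msr1, a scavenger receptor for modified lipoproteins, had 38.9 ± 25.6 CPM after pontine infarction and 0.431 ± 0.128 CPM in sham PN (log2 change 6.49 ± 0.84, edgeR adjusted p = 0.00537, and 0.0626 without sham PN replicate 3). Socs3 had 85.5 ± 98.9 CPM after pontine infarction and 2.10 ± 0.769 CPM in sham PN (log2 change 5.35 ± 0.90, edgeR adjusted p = 0.0119, and 0.0777 and 0.0931 without sham PN replicates 2 and 3). The classical count was 11 without pontine infarction replicate 2 and 2, 1 and 0 without sham PN replicates 1, 2 and 3. The alternative count was 3 without pontine infarction replicate 3 and 2, 2 and 1 without those shams. By limma voom the classical and alternative counts were 2 and 1, and with all 6 shams as one control 16 and 12. Of all 17008 tested genes limma voom called 315, and edgeR with all 6 shams as one control 4095. The classical count was 14 by DESeq2 and 12 with no filter on low counts. Those settings called 1738 of 17008 and 880 of 25359 tested genes.

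**Figure D4:**
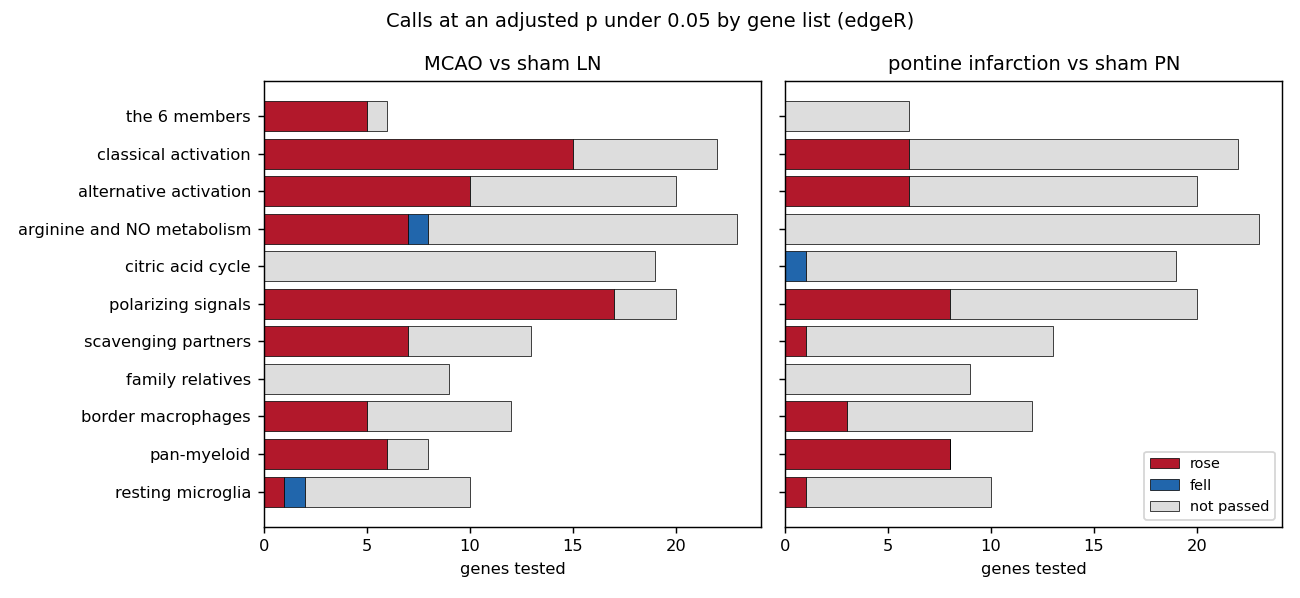
Number of tested genes that rose, fell or did not pass an adjusted p under 0.05 in edgeR, for the 6 members and 10 gene lists, after MCAO (left) and after pontine infarction (right). Classical and alternative activation genes rose in both strokes, 15 of 22 and 10 of 20 after MCAO and 6 of 22 and 6 of 20 after pontine infarction. For the arginine genes 8 of 23 and 0 of 23 were called, and for the citric acid cycle genes 0 of 19 and 1 of 19. Among all tested genes 18.6% were called after MCAO and 4.08% after pontine infarction.

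Around Nos2 and Arg1, 7 of 23 tested genes of arginine and nitric oxide metabolism rose after MCAO and 1, Oat, fell, with a median log2 change of 0.24. Among all tested genes 12.5% rose and 6.07% fell after MCAO. Gch1, which makes the cofactor of nitric oxide synthases, had 18.3 ± 13.7 CPM after MCAO, against 0.586 ± 0.282 CPM in sham LN (log2 change 4.92 ± 0.69, edgeR adjusted p = 0.00228). Slc7a2, the arginine carrier of activated macrophages, had 98.2 ± 72.8 CPM after MCAO, against 12.1 ± 1.34 CPM in sham LN (log2 change 3.02 ± 0.58, edgeR adjusted p = 0.00682). Odc1, which turns ornithine into polyamines, had 208 ± 95.3 CPM after MCAO, against 64.4 ± 3.80 CPM in sham LN (log2 change 1.69 ± 0.32, edgeR adjusted p = 0.00683). Gch1, Slc7a2 and Odc1 passed in all 14 alternatives.

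Ass1, which starts the return of citrulline to arginine, had 40.2 ± 22.3 CPM after MCAO, against 13.7 ± 0.686 CPM in sham LN (log2 change 1.55 ± 0.41, edgeR adjusted p = 0.0257). Ass1 lost its call without MCAO replicate 1 (0.0966), the unnumbered library (0.104) and sham LN replicates 1 (0.0884), 2 (0.0781) and 3 (0.0762). The count of arginine genes called, 8, was 4 without MCAO replicate 1, sham LN replicate 1 or sham LN replicate 3, and 5 with the compared libraries alone. After pontine infarction 0 of the 23 passed in edgeR, DESeq2 or limma voom, with 2 at an unadjusted p under 0.05 in edgeR and a median of -0.01. In that comparison edgeR called 4.08% of all tested genes, so 0 of 23 is near that share. With all 6 shams as one control, edgeR called 6 of the 23 after pontine infarction and 13 after MCAO. Of all 17008 tested genes that setting called 4095 after pontine infarction and 5346 after MCAO. Slc7a2 had 29.0 ± 20.9 CPM after pontine infarction and 14.4 ± 1.62 CPM in sham PN (log2 change 1.01 ± 0.54, edgeR adjusted p = 0.310). Gch1, like Arg1, was low in sham LN and not in sham PN, where it had 14.4 ± 6.54 CPM, against 16.3 ± 5.72 CPM after pontine infarction.

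Of the closest relatives of the members 9 were tested, and edgeR called 0 in either stroke. Among all tested genes 18.6% were called after MCAO and 4.08% after pontine infarction, so 0 of 9 is not far from these shares. The median log2 changes of the relatives were 0.24 after MCAO and 0.15 after pontine infarction. After MCAO 3 had an unadjusted p under 0.05, DESeq2 called 2, limma voom 0, and edgeR 3 without MCAO replicate 2 or with all 6 shams as one control. Of all tested genes edgeR then called 6170 of 17529 and 5346 of 17008. After pontine infarction none had an unadjusted p under 0.05, and DESeq2 and limma voom called 0. Arg2, the mitochondrial arginase, had 3.22 ± 1.90 CPM after MCAO, against 2.73 ± 0.194 CPM in sham LN (log2 change 0.24 ± 0.43, edgeR adjusted p = 0.718). Nos1, the neuronal synthase, had 30.1 ± 15.7 CPM after MCAO, against 42.6 ± 4.06 CPM in sham LN (log2 change -0.50 ± 0.34, edgeR adjusted p = 0.305). Nos3, the endothelial synthase, had 36.9 ± 16.4 CPM after MCAO, against 17.8 ± 3.16 CPM in sham LN (log2 change 1.05 ± 0.37, edgeR adjusted p = 0.0675). Mrc2, a collagen receptor related to Mrc1, had 13.8 ± 3.26 CPM after MCAO, against 16.5 ± 3.39 CPM in sham LN (log2 change -0.26 ± 0.50, edgeR adjusted p = 0.743).

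Around Irg1, 0 of 19 tested enzymes and carriers of the citric acid cycle and of itaconate were called after MCAO by edgeR, against 18.6% of all tested genes. Their median log2 change was -0.14. At an unadjusted p under 0.05 there were 2, DESeq2 called 1, limma voom 0, and edgeR 2 without MCAO replicate 2. With all 6 shams as one control, edgeR called 9 of the 19 and 5346 of all 17008 tested genes. After pontine infarction edgeR called 1 of the 19, near the share of 4.08% of all tested genes. This was Slc25a1, the mitochondrial citrate carrier, which fell to 95.1 ± 15.1 CPM, against 148 ± 18.9 CPM in sham PN (log2 change -0.63 ± 0.15, edgeR adjusted p = 0.0371). That call was lost without pontine infarction replicate 1 (0.113) or 2 (0.0539) and without sham PN replicates 1 (0.0740), 2 (0.106) and 3 (0.162). Against sham LN, Irg1 rose after MCAO while none of these 19 genes passed edgeR's test, and how many passed depended on which shams were used.

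Upstream of the members, 17 of 20 tested cytokines, receptors and transcription factors that polarize macrophages rose after MCAO, with a median log2 change of 1.75. Of all tested genes 12.5% rose after MCAO and 3.21% after pontine infarction. Csf2rb, the shared beta chain of the Il3, Il5 and Csf2 receptors, had 134 ± 84.0 CPM after MCAO, against 1.09 ± 0.0765 CPM in sham LN (log2 change 6.94 ± 0.72, edgeR adjusted p = 0.000821). After pontine infarction 8 of 20 rose, with a median of 1.26, and Csf2rb had 73.8 ± 55.2 CPM after pontine infarction and 1.34 ± 0.237 CPM in sham PN (log2 change 5.77 ± 0.69, edgeR adjusted p = 0.00508, and 0.0539 without sham PN replicate 3). The ligands Ifng, Il4, Il13 and Csf2 were too low to test. The MCAO count was 10, 10 and 11 without MCAO replicate 1, sham LN replicate 1 and sham LN replicate 3, and 11 with the compared libraries alone. The pontine count was 4 and 2 without pontine infarction replicates 1 and 3, and 1, 1 and 0 without sham PN replicates 1, 2 and 3. It was 2 by limma voom and 13 with all 6 shams as one control. Those settings called 315 and 4095 of 17008 tested genes.

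Cd163 works with genes that bind and break down haemoglobin and heme. Of 13 tested, 7 rose after MCAO, with a median log2 change of 1.09, and the count was 3 without any of the sham LN libraries and 2 with the compared libraries alone. In the reported fit 12.5% of all tested genes rose after MCAO. Hmox1, which breaks heme down, had 332 ± 280 CPM after MCAO, against 5.80 ± 0.212 CPM in sham LN (log2 change 5.84 ± 0.70, edgeR adjusted p = 0.00134). After pontine infarction edgeR called 1 of the 13, where 4.08% of all tested genes were called. DESeq2 called 2, limma voom 0, and edgeR 6 with all 6 shams as one control. Of all 17008 tested genes those settings called 1738, 315 and 4095. The 1 gene called in the reported fit was Hmox1, with 105 ± 71.2 CPM after pontine infarction and 11.2 ± 2.07 CPM in sham PN (log2 change 3.23 ± 0.62, edgeR adjusted p = 0.0187). That call was lost without pontine infarction replicate 3 (0.0515) and sham PN replicates 1 (0.0740), 2 (0.103) and 3 (0.102). Hp, haptoglobin, the partner that Cd163 recognises, had 27.0 ± 45.3 CPM after MCAO, against 0.729 ± 0.118 CPM in sham LN, with overlapping ranges (log2 change 5.20 ± 1.64, edgeR adjusted p = 0.0470). Without MCAO replicate 1 its adjusted p was 0.937, and without sham LN replicates 1, 2 and 3 it was 0.135, 0.131 and 0.127.

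Between the shams 0 of the 6 members were called by edgeR, and their median log2 change of sham LN over sham PN was -0.53, against -0.11 for all tested genes. At an unadjusted p under 0.05 edgeR had Arg1 alone (0.0394), DESeq2 called Arg1 (adjusted p = 0.0493), limma voom called 0, and the fit on the shams alone called Arg1 and Mrc1. Of all tested genes DESeq2 called 4512 of 17008 and the fit on the shams alone 6365 of 15933. Mrc1 had 5.52 ± 0.452 CPM in sham LN and 8.86 ± 1.37 CPM in sham PN, with no overlap, like the 50.9% of all tested genes given above (log2 change -0.68 ± 0.45, edgeR adjusted p = 0.322). Cd163 had 2.73 ± 1.05 CPM in sham LN and 3.58 ± 1.31 CPM in sham PN (log2 change -0.39 ± 0.60, edgeR adjusted p = 0.702). Irg1 had 0 counts over sham LN and 1 over sham PN, and Nos2 had 4 in each, so no fold between shams is given for them.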

How the data were processed

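Total RNA extracted with Trizol, with an RNA integrity number above 8 per the labels' protocols, was sequenced from rat brain. Reads were aligned to the rat genome Rnor_6.0 with HISAT2 (no version stated), per the submitters' processing notes. Which program counted them, on which annotation and with which strand setting is not given in the sources used here. The authors deposited unscaled counts per gene symbol in 12 libraries. Of the columns, 11 match a sample title and 1 MCAO column matches only its group.

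The software was edgeR 4.0.16 under R 4.3.3. filterByExpr (minimum count 10, minimum total 15) kept 17008 symbols, 45.7% of the table, and the others held 0.0453% of the counts. All 12 libraries entered a single quasi-likelihood fit after TMM scaling (common biological coefficient of variation 0.302). Tests were two-sided, with Benjamini-Hochberg adjustment over all tested genes and a threshold of 0.05. The SE was taken as the log2 change, unsigned, divided by the root of its F statistic. Correlations used log2 CPM with a prior count of 2. Intervals (95%, on pooled counts) and floors (3 counts) cover counting error only.

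Named genes were the members, up to 3 genes per list with an adjusted p under 0.05, the largest changes and at least 1 CPM in the higher group, fixed genes such as Csf1r, Lyve1 and Arg2, and the 3 genes nearest to each member. The members and gene lists were chosen with earlier results of these data known, and lists share a few genes, such as Csf1r, Stab1 and Arg2. Alternatives were DESeq2 1.42.0, limma 3.58.1 voom, DESeq2 size factors in edgeR, no filter on low counts, at least 1 CPM in 3 libraries, a fit of only the compared libraries, a replicate block, pooling the 6 shams, and leaving out single libraries. The fit was tested on simulated counts. No libraries were identical.

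Promoters are from RefSeq, assembly GRCr8, with 250 bases before and 50 after each start, and 4 motifs were searched on both strands. On GRCr8, Irg1 overlaps LOC120097063, Nos2 LOC106736471, and Mrc1 LOC134482611 and Mir511. Without known strandedness, reads of such pairs may be mixed in the counts.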

Additional observations from a re-analysis of the deposited data

How the results depend on the processing

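Arg1 and Nos2 kept their calls after MCAO in all 14 alternatives, and all 6 members kept their direction in both strokes. The members called after MCAO, 5 as reported, were 3 by limma voom, 6 with the replicate block and 2 to 6 with a library left out. After pontine infarction, 0 as reported, they were 2 with no filter, 4 by DESeq2, 2 with the compared libraries alone, 4 with all 6 shams as one control and 0 to 3 with a library left out. For the difference they were 1 by DESeq2 and 0 to 1 with a library left out, and between shams 1 by DESeq2 and 2 with the shams alone. Genes called after MCAO, 3163 as reported, were 1354 with the compared libraries alone, 5346 with 6 shams and 1136 to 6170 with a library left out. After pontine infarction, 694 as reported, they were 1738 by DESeq2, 315 by limma voom, 4095 with 6 shams and 6 to 965 with a library left out. For the difference they were 1 with no filter, 238 by DESeq2 and 0 to 970, and between shams 6365 with the shams alone and 2334 to 2662. The causes were not tested.

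Signs that turned were those of the differences for Mrc1 (-0.79, up to 0.66 with another library left out), Cd163 (-0.43, up to 0.89) and Chi3l1 (-0.83, up to 1.34), all without MCAO replicate 1, and of genes near 0. In pontine infarction these were Tmem119 at 0.04 with no filter, 0.05 with the compared libraries alone, 0.33 without pontine infarction replicate 1 (down to -0.56 without replicate 3) and 0.11 without sham PN replicate 3, and Mrc2 at -0.27 by limma voom, -0.11 with the replicate block and -0.59 without pontine infarction replicate 3 (up to 0.55 without replicate 1). Ass1 was at 0.61 with 6 shams and 0.11 without pontine infarction replicate 3 (down to -0.45 without replicate 1), Slc25a1 at 0.02 and Nos1 at 0.01 with 6 shams, and Nos3 at -0.10 without pontine infarction replicate 1. After MCAO, Mrc2 was at 0.11 with the replicate block and Arg2 at -0.28 without MCAO replicate 1 (up to 0.64 without the unnumbered library).

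Replicate numbers do not pair the samples by the labels. Deviations of same-numbered libraries correlated at 0.10 and 0.04 for MCAO with sham LN. For pontine infarction with sham PN they correlated at 0.05, 0.15 and 0.15. In both strokes each numbered stroke library correlated best with the sham of its own number. The reported fit has no replicate block, and whether the samples are paired was not tested. With the replicate block, which leaves out the unnumbered library, 1389 genes were called after MCAO, with all 6 members among them. After pontine infarction 2 members, Irg1 and Chi3l1, were called with the block.

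Of 38 named genes called after MCAO, 20 kept their call in every alternative, and of 28 after pontine infarction, 2. With 3 libraries a group, low counts of Irg1 and Nos2 in the shams limit their folds to bounds or wide intervals.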

Other observations

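Between the shams, 21.3% of all tested genes were called, and the arginine and citric acid cycle genes were called at a share near that. Of 23 tested arginine genes, 5 were lower and 1 higher in sham LN than in sham PN (edgeR adjusted p under 0.05), and 12 were called with the shams alone in the fit. That fit called 6365 of 15933 tested genes. Gch1 had 0.586 ± 0.282 CPM in sham LN and 14.4 ± 6.54 CPM in sham PN (log2 change -4.57 ± 0.68, edgeR adjusted p = 0.000749). Agmat had 2.31 ± 0.671 CPM in sham LN and 0.249 ± 0.144 CPM in sham PN (log2 change 3.17 ± 0.60, edgeR adjusted p = 0.00292). Of 19 citric acid cycle genes, 5 were lower in sham LN, among them Slc25a1 with 59.4 ± 6.39 CPM in sham LN and 148 ± 18.9 CPM in sham PN (log2 change -1.31 ± 0.15, edgeR adjusted p = 0.000123). The count of citric acid cycle genes called was 2 or 3 with any of the 6 sham libraries left out.

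Of the activation genes, 3 of 22 classical and 1 of 20 alternative were called between the shams, smaller shares than the 21.3% of all tested genes. The alternative count was 6 with the shams alone, in a fit that called 6365 of 15933 tested genes. Egr2, a transcription factor of alternative activation that neurons also make, had 11.4 ± 1.74 CPM in sham LN and 0.139 ± 0.142 CPM in sham PN (log2 change 6.28 ± 1.05, edgeR adjusted p = 0.00150). Of the 8 pan-myeloid genes 0 were called between the shams by edgeR, DESeq2 or limma voom, 0 had an unadjusted p under 0.05, and their summed level was 149 to 186 CPM in sham LN and 153 to 184 CPM in sham PN.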
